A study of Mus musculus with 9 samples.

Results

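Cells with enforced overexpression of Zbtb46 (OE) were compared with unmodified cells (WT) of MCEC, an established mouse line labelled as cardiac endothelial. The comparison took 6 of the 9 libraries of the series, 3 of each group, and every gene of the count table, each Ensembl gene once. Of 55487 genes, 16955 had enough counts to be tested. The other 3 libraries came from cells with Zbtb46 knocked down (KD). They entered the choice of genes to test, the scaling and the model's estimate of the spread. Both groups carry the same cell type label and differ in the labelled genotype, WT or Zbtb46 Overexpression. The labels name no treatment, time, vector or promoter. They do not say whether the OE cells are 1 clone or a pool, and no library of cells with an empty vector was analysed here. Effects of introducing a vector or of selecting a line therefore cannot be told apart from those of Zbtb46. The labels call the libraries replicates without saying that they came from separate cultures, so p-values measure only the spread between these libraries. The model took that spread as common to the groups. As a coefficient of variation between replicates it was 10.1% in WT, 4.73% in OE and 3.81% in KD.

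Zbtb46 belongs to the BTB zinc finger family, whose members bind DNA through zinc fingers and recruit corepressor complexes through the BTB domain. It is best known as a factor of classical dendritic cells and is also made by vascular endothelium. Endothelial cells line vessels, lay down a basement membrane and read growth factor, guidance and inflammatory signals at their surface. Each of these programmes, and the metabolic and biosynthetic programmes that any growing line runs, was described here as a list of genes divided by role.

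Levels are read counts per 1000000 of the library after TMM scaling (CPM), and fold changes are log2 values of OE over WT from edgeR's quasi-likelihood model. A gene is called higher or lower at a Benjamini-Hochberg adjusted p under 0.05. Total counts ran from 39491828 to 55745849 per library. Zbtb46 itself had 13.3, 14.4 and 13.2 CPM in WT and 192, 189 and 194 CPM in OE, a log2 fold change of 3.81. All 3 OE libraries stood far above the 3 WT libraries, as labelled. The labelled cell type was checked on 12 endothelial markers, of which 5 had enough counts to be tested. Cdh5, Tie1, Emcn and Erg stood at or near 0 in both groups and Pecam1 at 0.0578 CPM in WT and 0.15 CPM in OE, whereas Eng stood at 124 CPM in WT and 84.9 CPM in OE and Flt1 at 17.2 CPM in WT and 21.9 CPM in OE. Summed over the 12 markers the level was 142 to 154 CPM in WT and 105 to 115 CPM in OE. The 8 fibroblast markers summed to between 5110 and 5680 CPM in WT and between 4040 and 4130 CPM in OE, of which Col1a1 made up 5259 CPM in WT and 4032 CPM in OE. Markers of lymphocytes, red cells and platelets summed to at most 0.235 CPM in any library. The 8 cardiomyocyte markers summed to 2.4 to 2.89 CPM in WT and 7.33 to 8.87 CPM in OE, and the 10 dendritic cell and macrophage markers to 8.49 to 8.97 CPM and 6.53 to 7.49 CPM. What these levels contribute to the differences below was not tested. In bulk RNA, fewer cells of a type and less RNA per cell cannot be told apart.

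The setting in which reads were assigned to strands is not given in the sources used here, so counts may be shared where a second gene covers the same bases. Such a gene, with at least 10% of the member's counts, lies over these members named below: Adcy3, Ccnd1, Col18a1, Col4a1, Col4a2, Cox4i1, Cyp51, Eng, Hspd1, Igfbp7, Itga1, Kdm1a, Nop56, Ntng2, Peak1os, Sulf2 and Tapbp.

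Differences between OE and WT were broad and mostly small. Of the genes tested, 6174 were called, 36.4% of the total: 2874 (17.0%) were higher in OE and 3300 (19.5%) lower. A change of at least 2-fold was seen in 342 higher and 564 lower genes, 2.02% and 3.33% of those tested. In 7651 genes (45.1%) the OE and WT libraries did not overlap. Most genes named below were picked by small p-values, so groups that stand apart describe them and add no evidence to their calls. The median of all genes was 0.002 on the log2 scale, and the median size among called genes was 0.377. Scaling by library totals alone called 1623 genes higher and 3506 lower, so that the higher share of calls fell from 46.55% to 31.644%. The same scaling after ribosomal RNA features were left out gave 3123 in each direction. Well expressed genes were called most often: at a mean of 100 CPM or more, 31.6% of 2078 genes were higher and 29.0% lower. Those shares are the background for lists of abundant transcripts.

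Some of the difference followed position on the chromosomes. Among 142 windows of 20 Mb with at least 10 tested genes, the median of the log2 fold changes exceeded 0.2 in size in 14. They held 1896 of the tested genes, and 58.175% of these were called, against 33.674% elsewhere. The 4 neighbouring windows toward the end of chromosome 4 had medians of 0.274 to 0.358. A window on chromosome 16 had 0.205. On chromosomes 8 and 11 a single window was lower, at -0.439 and -0.516, and on chromosomes 9 and 13 several were. The 3 OE libraries kept the same sign in each of the 14 windows. The windows were chosen by a median over these same libraries, so a shared sign was largely set in advance. What set these windows apart was not tested. For some of the genes named below that lie in such windows, the value after the window medians were removed is given beside the change. For others it is not, such as Cyba and Peak1os, whose -5.10 and -4.63 became -4.66 and -4.23.

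**Figure D1:**
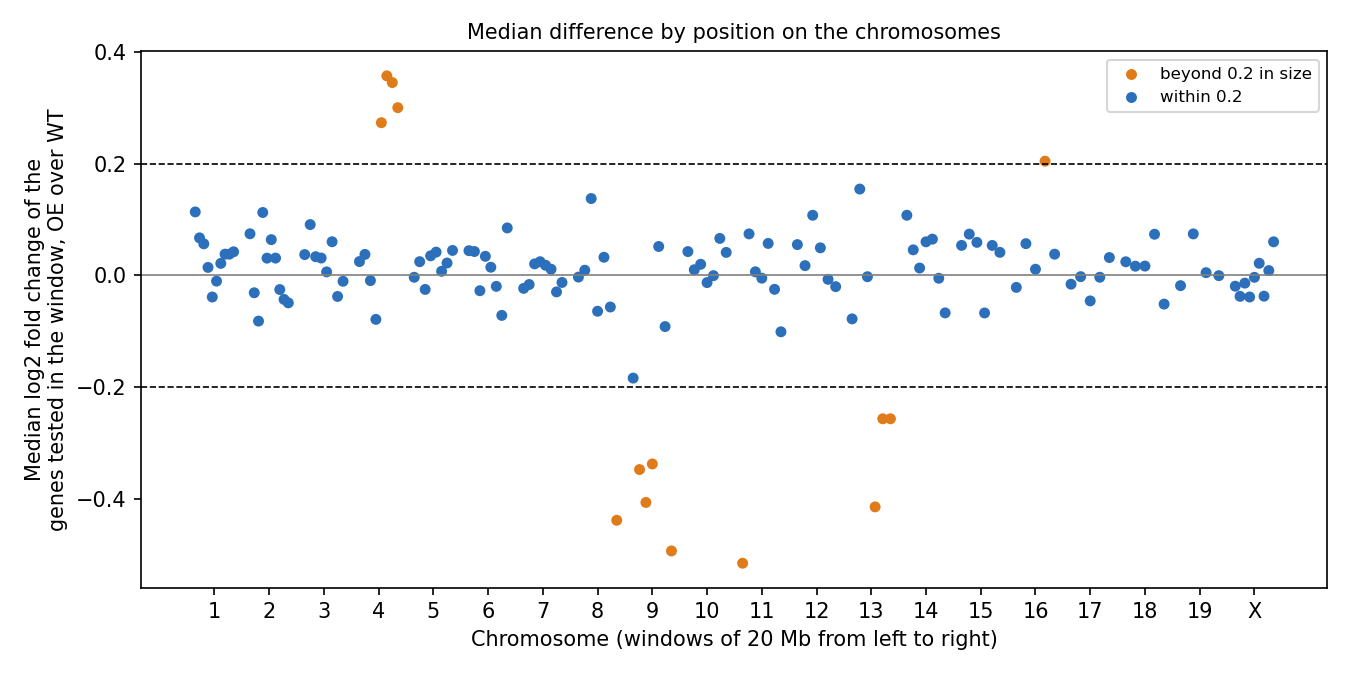
Median log2 fold change (OE over WT) of the genes tested in each 20 Mb window, plotted by chromosome, 1 point a window. Most of the 142 points lie within 0.2 of 0 (dashed lines), apart from 4 windows above it on chromosome 4, 1 at 0.205 on chromosome 16, and windows below it on chromosomes 8 (1), 9 (4), 11 (1) and 13 (3).

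The enzymes of cholesterol synthesis rose together. This pathway turns acetyl-CoA into cholesterol, and its genes are the standard targets of the factor SREBF2, which works when sterols in the endoplasmic reticulum run low. Of its 20 enzymes, all tested, 18 were higher and 0 lower, with a median of 0.621. Cyp51, the lanosterol demethylase, had 116, 115 and 102 CPM in WT and 222, 224 and 238 CPM in OE (log2 fold change 1.03, SE 0.069, adjusted p = 1.19e-12). Msmo1, a sterol methyl oxidase of the same pathway, had 69.7, 67.3 and 54.5 CPM in WT and 133, 134 and 132 CPM in OE (1.06 on the log2 scale, SE 0.11). Sqle, the squalene epoxidase, had 96.4, 95.7 and 84.7 CPM in WT and 163, 166 and 164 CPM in OE (0.83, SE 0.061). In each of these the lowest OE library lay above the highest WT library.

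The genes that govern the pathway moved less uniformly. Of 15 regulators and uptake genes tested, 3 were higher and 3 lower. Insig1, which holds the SREBP complex back and is itself one of its targets, had 76.1, 77.2 and 75.7 CPM in WT and 157, 162 and 154 CPM in OE (1.05, SE 0.022). Srebf2 rose from 414 to 521 CPM (0.33, SE 0.044). Abca1, the exporter of cholesterol, fell from 86.2 to 67.4 CPM. Lipoprotein lipase, Lpl, fell from 226 to 131 CPM.

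Fatty acid synthesis shared the direction. Of its 24 genes 15 were higher and 3 lower, with a median of 0.293. The stearoyl-CoA desaturase Scd2 had 1716, 1757 and 1711 CPM in WT and 2681, 2713 and 2803 CPM in OE (0.66, SE 0.023), with the groups apart. Elovl6, which lengthens palmitate, rose from 49.8 to 91.8 CPM and the synthase Fasn from 617 to 844 CPM. The gene for ATP citrate lyase, Acly, which supplies acetyl-CoA to both pathways, rose from 263 to 362 CPM. Of 22 genes of fatty acid uptake and oxidation 3 were higher and 3 lower, at a median of 0.037 that turned negative with library totals.

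Promoter windows of RefSeq (GRCm38.p6), 250 bases before to 50 after a start, were searched on both strands for short motifs. All tested members found in RefSeq were searched, called or not, so the shares describe lists and not the OE difference. Some lists name targets of the factor whose motif was searched, so part of their share may follow from the choice of members. Promoters are printed only for called members that hold the motif and average 5 CPM or more in OE. Of the 20 cholesterol enzymes 15 matched, with 18 promoters. The CCAAT box, the letters CCAAT, was in 14 of these 18, 77.8%, against 37.4% of all 32851 promoters. It was also in 33 of 45 promoters of spindle and kinetochore genes (73.3%). The sterol response element, searched as a single fixed form, was in 0 of the 18 and in 0.234% of all promoters. Promoters of the enzymes with the largest rise are shown for the 250 bases before the start, 5′ to 3′, with CCAAT or its reverse complement in capitals.
Msmo1, chr8:64733579-64733828 on the minus strand: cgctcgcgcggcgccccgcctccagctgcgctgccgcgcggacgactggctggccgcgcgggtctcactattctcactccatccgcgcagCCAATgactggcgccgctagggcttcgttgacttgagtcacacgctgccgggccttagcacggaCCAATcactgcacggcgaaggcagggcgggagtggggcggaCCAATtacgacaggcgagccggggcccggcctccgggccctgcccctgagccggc
Cyp51, chr5:4104698-4104947 on the minus strand: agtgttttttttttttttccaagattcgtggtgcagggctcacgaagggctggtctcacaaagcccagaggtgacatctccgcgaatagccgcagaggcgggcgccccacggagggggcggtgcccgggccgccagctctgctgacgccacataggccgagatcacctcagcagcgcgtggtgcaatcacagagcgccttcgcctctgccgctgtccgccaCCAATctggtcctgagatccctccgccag
A match is a description of these letters only.

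**Figure D2:**
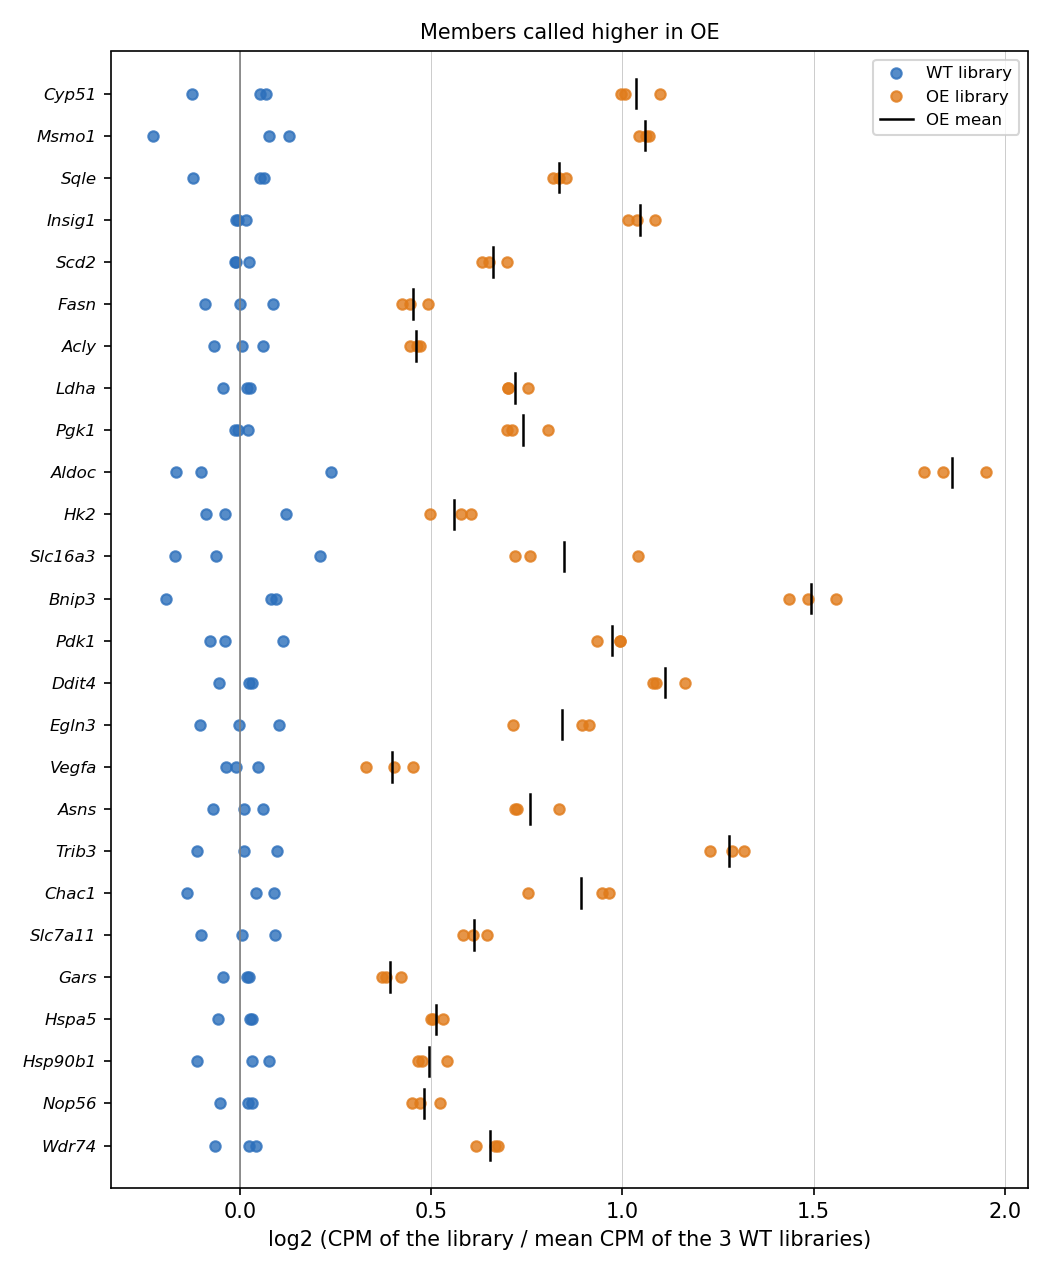
Level of each library as log2 of its CPM over the WT mean, for selected list members that were called higher. The lists are those of sterols, fatty acids, glycolysis, hypoxia, amino acid stress, tRNA synthetases, folding and ribosome biogenesis. The OE points (orange) of every gene shown lie to the right of its WT points (blue), 0.33 to 1.95 log2 units above the WT mean.

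Glycolysis, which splits glucose to pyruvate and lactate, was raised along most of its length. Of 25 genes 16 were higher and 2 lower, at a median of 0.369. Ldha, which makes lactate from pyruvate, had 987, 945 and 991 CPM in WT and 1583, 1583 and 1642 CPM in OE (0.72, SE 0.028, adjusted p = 4.42e-12). Pgk1, the first enzyme of the chain to yield ATP, had 341, 335 and 333 CPM in WT and 551, 546 and 588 CPM in OE (0.74, SE 0.035). Aldoc, an aldolase otherwise prominent in brain, had 7.78, 8.15 and 10.3 CPM in WT and 30.2, 31.3 and 33.8 CPM in OE (1.86, SE 0.13). The groups did not overlap in any of the 3. The glucose carrier Slc2a1 rose from 100.2 to 171 CPM and Eno1 from 1096 to 1847 CPM; both lie in the raised windows of chromosome 4, and their log2 fold changes of 0.77 and 0.75 became 0.41 and 0.45 once window medians were removed. Hk2, which traps glucose in the cell, rose from 43.5 to 64.1 CPM. Pkm, the pyruvate kinase, was called lower at 2341 CPM in WT and 2116 CPM in OE, but lies in a lowered window and stood at 0.26 after its removal. The lactate carrier Slc16a1 fell from 254 to 190.2 CPM.

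Genes that oxygen shortage induces through HIF1 were also mostly higher. Of 24 tested, 16 were higher and 3 lower, with a median of 0.399. Bnip3, a mitophagy receptor, had 8.01, 7.93 and 6.56 CPM in WT and 21, 22.1 and 20.3 CPM in OE (1.49, SE 0.1). Pdk1, which closes the entry of pyruvate into mitochondria, had 33.2, 37.9 and 34.1 CPM in WT and 69.8, 67 and 69.8 CPM in OE (0.97, SE 0.061). The adenylate kinase Ak4 had 49.8, 51.7 and 45.9 CPM in WT and 99.9, 94.2 and 98.4 CPM in OE (0.99 on the log2 scale, 0.63 with window medians removed). OE lay above WT in all libraries for these genes. Ddit4, an inhibitor of mTORC1, rose from 14.7 to 31.9 CPM and the oxygen sensor Egln3 from 13.2 to 23.8 CPM. Vegfa, the endothelial growth factor, rose from 125 to 165 CPM. The transcript of Hif1a itself fell from 139.5 to 122 CPM (-0.19, SE 0.078).

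The core of the hypoxia response element, ACGTG on either strand, was in 19 of 41 glycolysis promoters (46.3%) and in 13 of 28 hypoxia-response promoters (46.4%), against 19.6% of all promoters. Lists outside this response held it too, with 43.8% of tRNA synthetase promoters and 29.5% of those of the amino acid list below. The core includes matches that are also the E-box CACGTG, which stood in 12.2% and 17.9% of these promoters and in 7.15% of all. Slc16a3, a carrier that exports lactate, is shown with ACGTG in capitals; it rose from 3.38 to 6.07 CPM (0.85, SE 0.15).
Slc16a3, chr11:120948817-120949066 on the plus strand: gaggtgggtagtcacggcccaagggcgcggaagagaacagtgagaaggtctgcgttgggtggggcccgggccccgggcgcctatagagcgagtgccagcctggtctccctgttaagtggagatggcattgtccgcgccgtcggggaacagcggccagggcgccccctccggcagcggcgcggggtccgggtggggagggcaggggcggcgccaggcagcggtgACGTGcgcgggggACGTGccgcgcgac

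Mitochondrial respiration gave no common direction. Of 94 subunits of the respiratory chain and ATP synthase, 8 were higher and 14 lower, at a median of -0.003, and with window medians removed 5 were higher and 4 lower. The lowered subunits Cox4i1 (186 to 136 CPM) and Sdha (200.4 to 138 CPM) lie in lowered windows. Their log2 fold changes of -0.45 and -0.54 became -0.016 and -0.13. Citrate cycle enzymes split evenly, with 10 of 26 higher and 10 lower, or 7 and 6 with window medians removed. The split did not hold with library totals alone, where 3 were higher and 10 lower. Idh1, the cytosolic isocitrate dehydrogenase that makes NADPH, rose from 46.1 to 68.1 CPM.

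Amino acid supply and the ATF4 stress programme rose. ATF4 is a factor whose translation increases when amino acids run short or proteins misfold, and it drives amino acid synthesis, uptake and tRNA charging. Of 46 genes 34 were higher and 4 lower, with a median of 0.374. Asns, the asparagine synthetase, had 176, 169.7 and 161 CPM in WT and 277, 278 and 300.5 CPM in OE (0.76, SE 0.053, adjusted p = 4.07e-11). Trib3, a pseudokinase induced by ATF4, had 24.4, 23 and 21.1 CPM in WT and 53.5, 55.7 and 56.9 CPM in OE (1.28, SE 0.066). Chac1, which degrades glutathione, had 38.2, 33.7 and 39.5 CPM in WT and 71.6, 72.5 and 62.6 CPM in OE (0.90, SE 0.097). Each had its 3 OE libraries above its 3 WT libraries. Among 14 stress effectors 11 were higher, and Atf4 itself rose from 370.3 to 468 CPM. Of 11 transporters 7 were higher, among them the cystine carrier Slc7a11 at 29.2 CPM in WT and 44.6 CPM in OE. The large neutral amino acid carrier Slc7a5 was called lower at 294 CPM in WT and 238 CPM in OE, in a lowered window. Its log2 fold change of -0.31 became 0.13 with the window median removed.

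A single enzyme of the list fell strongly. Ass1, the argininosuccinate synthetase that lets a cell make its own arginine, had 32.7, 34.9 and 33.3 CPM in WT and 8.48, 7.73 and 9.36 CPM in OE (-1.98, SE 0.084, adjusted p = 7.04e-14). Its partner Asl fell slightly, from 54.3 to 47 CPM. The arginine carrier Slc7a1 rose from 406 to 533 CPM. All 3 OE libraries lay below WT for Ass1 and above WT for Slc7a1. The cytosolic aminoacyl tRNA synthetases, which load amino acids onto tRNAs, were higher in 17 of 22 and lower in 0, at a median of 0.211. Gars, the glycyl enzyme, rose from 376 to 492 CPM and Cars, the cysteinyl enzyme, from 107 to 140.0 CPM. With library totals alone 10 of the 22 were called higher.

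The composite site that ATF4 binds with C/EBP factors, searched as TGATGNAA, was in 10 of 44 promoters of this list (22.7%) and in 5 of 16 tRNA synthetase promoters (31.2%). Among all promoters 3.97% held it, and among 42 collagen promoters 0. The amino acid list was drawn up in part as ATF4 targets, so its share does not bear on the OE difference. Among called members that average 5 CPM or more in OE, the 3 with the largest rise that hold the site before the start are shown. The match is in capitals. Vldlr, a lipoprotein receptor, rose from 6.36 to 17 CPM. Fgf21, a stress hormone, rose from 2.16 to 5.82 CPM.
Vldlr, chr19:27216770-27217019 on the plus strand: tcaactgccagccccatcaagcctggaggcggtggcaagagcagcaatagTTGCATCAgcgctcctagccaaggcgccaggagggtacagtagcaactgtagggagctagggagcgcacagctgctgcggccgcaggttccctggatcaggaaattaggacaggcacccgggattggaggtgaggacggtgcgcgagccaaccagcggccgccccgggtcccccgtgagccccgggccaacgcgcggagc
Fgf21, chr7:45615491-45615740 on the minus strand: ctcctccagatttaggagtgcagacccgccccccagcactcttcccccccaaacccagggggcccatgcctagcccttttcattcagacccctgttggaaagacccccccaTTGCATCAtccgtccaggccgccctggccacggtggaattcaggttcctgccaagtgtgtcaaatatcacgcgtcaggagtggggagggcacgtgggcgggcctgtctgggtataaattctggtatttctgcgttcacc
Chac1, chr2:119350992-119351241 on the plus strand: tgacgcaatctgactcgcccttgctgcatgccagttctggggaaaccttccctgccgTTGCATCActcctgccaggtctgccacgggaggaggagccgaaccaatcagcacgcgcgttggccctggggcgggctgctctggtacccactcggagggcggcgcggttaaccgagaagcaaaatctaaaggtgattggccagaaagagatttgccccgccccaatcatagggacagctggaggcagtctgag

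Protein folding genes were raised in part. Of 41 genes of the endoplasmic reticulum and its unfolded protein response, 19 were higher and 8 lower. Hspa5, the main chaperone of that compartment, had 1279.9, 1286 and 1208 CPM in WT and 1784, 1778 and 1818 CPM in OE (0.51, SE 0.031). Hsp90b1 rose from 494 to 697 CPM, and Ero1l, the oxidase that makes disulfide bonds and is also a hypoxia gene, from 35.7 to 67.7 CPM. OE exceeded WT in every library for all 3. Xbp1 was called lower at 96.9 CPM in WT and 80.7 CPM in OE and higher after removal of its window median, where -0.26 became 0.25. Of 28 cytosolic and mitochondrial heat shock genes 17 were higher and 2 lower, or 9 and 2 with library totals alone. Hspb1 rose from 19 to 40.3 CPM and the mitochondrial chaperonin Hspd1 from 772 to 1043 CPM.

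Genes of ribosome assembly and translation were mostly higher where they were called. Of 39 nucleolar genes, which process ribosomal RNA and build subunits, 29 were higher and 1 lower, at a median of 0.224. Wdr74 had 72.3, 67.1 and 71.4 CPM in WT and 112, 112 and 108 CPM in OE (0.65, SE 0.038) and Nop56, a core box C/D protein, had 217, 219 and 207 CPM in WT and 297, 308 and 293 CPM in OE (0.48, SE 0.034). The groups were apart in both. Of 46 translation initiation factors 25 were higher and 3 lower. Eif4g3, a scaffold of the cap-binding complex, had 16.7, 17.1 and 16.5 CPM in WT and 50.6, 54.3 and 50.1 CPM in OE (1.62, SE 0.039, and 1.28 with its window removed). Of 87 cytosolic ribosomal proteins 34 were higher and 9 lower, and with window medians removed 32 and 1. Their medians by subunit were 0.123 and 0.104. With library totals alone the counts over these lists fell, to 18 and 1 for the nucleolar genes, to 12 and 3 for the initiation factors and to 9 and 9 for the ribosomal proteins. Ribosomal protein genes have many near-identical processed pseudogenes, so their counts may be split. Of 46 proteasome subunits 13 (28.3%) were higher and 1 (2.17%) lower, at a median of 0.081, and 2 and 1 with library totals alone. The higher share was 17.0% over all genes tested and 31.6% over genes at 100 CPM or more.

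Cell division genes rose modestly. Of 71 genes of mitosis and G2, 42 were higher and 9 lower, with a median of 0.158. With library totals alone 18 were higher and 10 lower. Cenpe, a kinetochore motor, had 135, 168 and 136 CPM in WT and 210.4, 212 and 216 CPM in OE (0.54, SE 0.1). Mybl2, which activates G2 genes, had 66, 63.2 and 69 CPM in WT and 92.3, 94 and 98.1 CPM in OE (0.52, SE 0.044). Both had higher values in all 3 OE libraries. The cyclin genes Ccnb1 and Ccnb2 were called lower, from 139 to 121 CPM and 137 to 114 CPM; both lie in lowered windows, with log2 fold changes of 0.052 and 0.063 once those were removed. The cell cycle homology region, TTTGAA on either strand, was in 33 of 45 promoters of the spindle and kinetochore genes (73.3%) and in 17.9% of all promoters. Of 80 replication and G1/S genes 22 (27.5%) were higher and 12 (15.0%) lower, and with library totals alone 9 and 12. Over genes at 100 CPM or more 31.6% were higher and 29.0% lower. Cyclin D moved both ways: Ccnd1 rose from 13.3 to 20.6 CPM and Ccnd2 fell from 123 to 79.3 CPM. The p53 pathway was mixed, with 5 of 27 genes higher and 7 lower. Cdkn1a, its standard target, stood at 12.7 CPM in WT and 11.9 CPM in OE and was not called (adjusted p = 0.46).

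Genes of the extracellular matrix were mostly lower. Collagens form its fibres and sheets, and the basement membrane beneath endothelium is built on the collagen IV chains Col4a1 and Col4a2. Of 51 collagen and collagen-modifying genes, 9 were higher and 29 lower, at a median of -0.344. Among the 10 fibrillar chains 0 were higher and 8 lower. Col3a1, a chain of elastic tissues and vessel walls, had 2984, 3169 and 3282 CPM in WT and 1036, 1063 and 1054 CPM in OE (-1.58, SE 0.042, adjusted p = 3.09e-17). Col5a3 had 20.3, 21.1 and 19 CPM in WT and 1.3, 2.4 and 1.69 CPM in OE (-3.48, SE 0.25). Col4a1 had 2037, 2135 and 2203 CPM in WT and 1133, 1138 and 1173 CPM in OE (-0.89, SE 0.036). The OE libraries lay below every WT library in all 3. Col4a2, which shares its promoter region with Col4a1, fell from 1268 to 736 CPM. The chains of collagen VI, Col6a1 and Col6a2, fell from 925 to 541 CPM and 645 to 363 CPM. Col1a1, a chain of type I collagen, fell from 5259 to 4032 CPM.

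Not all members moved down. Col18a1, the source of endostatin, rose from 28.6 to 47.4 CPM. Among 21 modifying enzymes 7 were higher and 11 lower. The prolyl hydroxylase P4ha2 rose from 92.8 to 148 CPM and Adamts2, which trims procollagen, from 9.84 to 22.9 CPM. Crtap, part of the prolyl 3-hydroxylase complex, fell from 130.3 to 55.3 CPM, and the cross-linking enzyme Lox from 634 to 444 CPM.

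**Figure D3:**
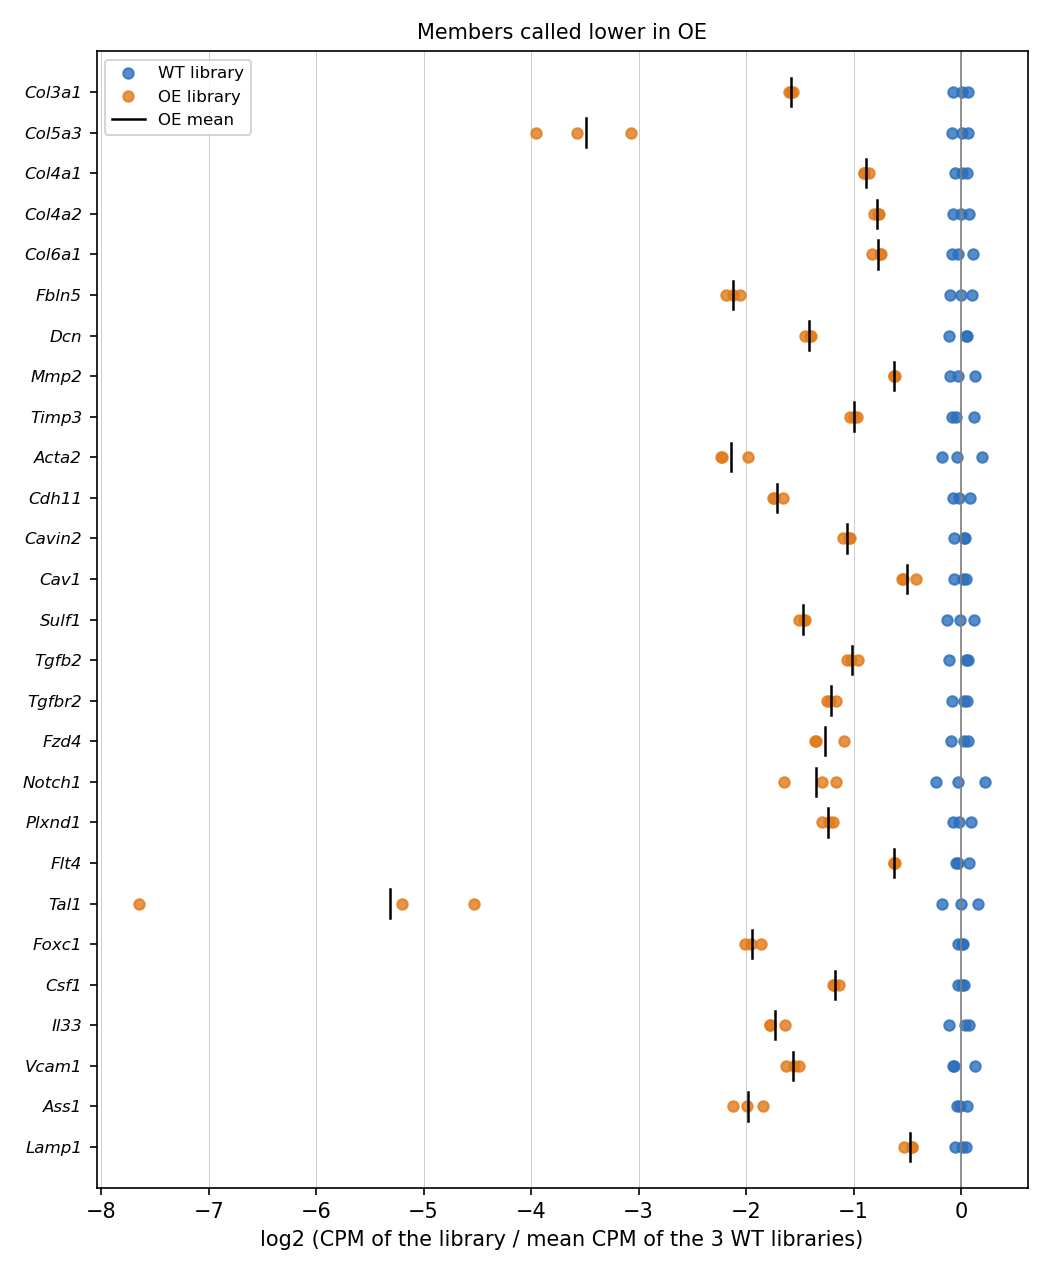
Level of each library as log2 of its CPM over the WT mean, for selected list members that were called lower. Most belong to matrix, contractile, guidance, growth factor and inflammatory lists. Others are of the caveolae, endothelial, Wnt, Notch, heparan sulfate, lysosome and amino acid lists. The OE points (orange) of every gene shown lie to the left of its WT points (blue), from -0.42 to -7.65 log2 units of the WT mean.

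Other matrix proteins were lower as well. Of 22 matricellular and microfibril genes 1 was higher and 12 lower, at a median of -0.452. Fbln5, which organises elastic fibres, had 46.6, 49.9 and 53.6 CPM in WT and 11, 11.5 and 12 CPM in OE (-2.12, SE 0.068). Dcn, the proteoglycan decorin that is also a fibroblast marker, had 102, 102 and 90.7 CPM in WT and 35.9, 37 and 37.3 CPM in OE (-1.42, SE 0.058). Smoc1 had 16.9, 15.4 and 16.4 CPM in WT and 0.426, 0.646 and 0.422 CPM in OE, and Fbln2 fell from 1079 to 522 CPM. OE lay below WT in all libraries for these. Spp1, the cytokine-like protein osteopontin, was the member that rose, from 14 to 28.9 CPM. Fn1, fibronectin, stood at 5563 CPM in WT and 5816 CPM in OE and was not called (adjusted p = 0.585). Of 13 laminins, nidogens and related genes 3 were higher and 5 lower. The 3 higher ones included perlecan, Hspg2, at 904 CPM in WT and 1263 CPM in OE, whose log2 fold change of 0.48 became 0.14 with its window removed; then 0 of the 13 were called higher. Integrins, the receptors for these proteins, were higher in 3 of 16 and lower in 6. The collagen receptor subunit Itga1 fell from 17.6 to 6.51 CPM and the fibronectin receptor subunit Itga5 rose from 130.2 to 158 CPM.

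Enzymes that cut the matrix, and their inhibitors, were lower more often than higher. Of 41 metalloproteinases of the MMP, ADAM and ADAMTS families 7 were higher and 20 lower. Mmp2, a gelatinase, had 439.6, 462 and 516 CPM in WT and 306, 308 and 308 CPM in OE (-0.62, SE 0.069). Adam10, the sheddase of Notch and many other surface proteins, fell from 426 to 185 CPM, and its log2 fold change of -1.20 became -0.86 with its window removed. Of 11 inhibitors 1 was higher and 7 lower. Timp3, which binds to matrix, had 436, 502 and 448 CPM in WT and 226, 235 and 232 CPM in OE (-1.0, SE 0.065). Serpinf1, the angiogenesis inhibitor PEDF, fell from 27.9 to 8.29 CPM. All 3 OE libraries lay below WT for Mmp2 and Timp3. Plat, tissue plasminogen activator, fell from 60.2 to 22.7 CPM.

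The contractile set was mostly lower, and factors of mesenchymal transition moved both ways. Of 20 contractile genes 1 was higher and 15 lower, with a median of -0.386. Acta2, smooth muscle actin, had 6.85, 7.51 and 8.84 CPM in WT and 1.66, 1.96 and 1.64 CPM in OE (-2.14, SE 0.13). Tpm1 fell from 915 to 582 CPM, and its log2 fold change of -0.65 became -0.31 with its window removed. Cdh11, a mesenchymal cadherin, had 432, 481 and 449 CPM in WT and 135, 136 and 144 CPM in OE (-1.71, SE 0.053). Groups did not overlap for Acta2 or Cdh11. Of 15 transition factors 5 were higher and 7 lower, at a median of -0.081. Snai1 rose from 12.7 to 19.9 CPM, Snai2 from 1.25 to 3.75 CPM and Twist1 from 16.1 to 20.9 CPM, while Zeb1 fell from 24.4 to 20.3 CPM. The summed level of 8 smooth muscle and pericyte markers was 11.4 to 14.6 CPM in WT and 4.08 to 4.9 CPM in OE, with Acta2 among the 8. The part of such cells in the fall was not tested.

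Genes of the caveolae, flask-shaped pits of endothelial membranes, fell. Of 11 genes 0 were higher and 7 lower. Cavin2 had 294, 296 and 274 CPM in WT and 135, 141 and 139.7 CPM in OE (-1.06, SE 0.04) and Cav1, the coat protein, had 96.5, 98.8 and 91.5 CPM in WT and 65.2, 65.6 and 71.4 CPM in OE (-0.50, SE 0.053). OE lay below WT in all libraries. Of 22 YAP and TEAD targets 3 were higher and 11 lower. Ccn2 fell from 154 to 84 CPM and Ccn1 from 483 to 368 CPM, and Ankrd1 rose from 32 to 39.4 CPM. Tight junction genes had 0 of 12 higher and 6 lower. F11r, the adhesion molecule JAM-A, fell from 328 to 227 CPM. Of 9 gap junction genes 3 were higher and 2 lower, or 2 and 1 with window medians removed. Among them Gja1, connexin 43, fell from 157 to 79.1 CPM.

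Heparan sulfate, a sugar chain that holds growth factors at the cell surface, is carried by core proteins and edited by sulfatases. Of 11 core proteins 4 were higher and 6 lower, and of 18 enzymes 2 were higher and 9 lower. The glypicans Gpc3 and Gpc4 fell from 88.5 to 36.7 CPM and 35.2 to 14.1 CPM. The sulfatases that strip 6-O-sulfate moved in opposite directions. Sulf1 had 106, 126 and 116 CPM in WT and 40.8, 42.3 and 42.6 CPM in OE (-1.47, SE 0.074). Sulf2 had 1.58, 2.18 and 2.22 CPM in WT and 9.63, 9.79 and 9.69 CPM in OE (2.27, SE 0.16). OE lay below WT in every library for Sulf1 and above it for Sulf2. Sulf2 lies opposite a gene with more counts, so its rise is uncertain.

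Growth factor genes moved both ways. In the TGF-beta and BMP family, whose ligands drive matrix production, 3 of 11 ligands were higher and 8 lower, at a median of -0.301. Tgfb2 had 109.7, 111 and 98.2 CPM in WT and 51.1, 52.4 and 54.9 CPM in OE (-1.01, SE 0.065). Tgfbr2, the type II receptor that TGF-beta ligands need, had 249, 275 and 268 CPM in WT and 112, 113 and 118 CPM in OE (-1.21, SE 0.05). Nog, a secreted trap for BMPs, had 0.264, 0.235 and 0.112 CPM in WT and 2.86, 2.5 and 3 CPM in OE (3.76, SE 0.32). The groups were apart in all 3, low in OE for the first pair and high for Nog. Targets were divided: Id2 rose from 43.6 to 87.8 CPM, and Ccn2 and Id1 fell, the latter from 175 to 156 CPM.

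Of 12 FGF ligands, receptors and binding proteins 4 were higher and 3 lower, at a median of -0.15. A receptor and a binding protein were among the higher ones. Fgfr1, a receptor tyrosine kinase, had 10.2, 12.6 and 15 CPM in WT and 52.5, 49.6 and 49.3 CPM in OE (2.0, SE 0.16). Fgfbp3, which releases FGFs from heparan sulfate, had 1.56, 1.36 and 1.86 CPM in WT and 36.3, 36.4 and 35.1 CPM in OE (4.51, SE 0.13). OE stood above WT in each library. Etv4 and Dusp6, which FGF signalling through ERK induces, rose from 4.69 to 9.15 CPM and 9.8 to 13.5 CPM, and Spry1, another such gene, fell from 7.21 to 4.74 CPM. Of 7 PDGF ligands and receptors 1 was higher and 5 lower. Insulin-like growth factor genes included Igf2r, which clears IGF2 and sorts lysosomal enzymes, at 36.1, 44.7 and 42.5 CPM in WT and 105, 103 and 112 CPM in OE (1.37, SE 0.1), higher in every OE library. The binding proteins diverged: Igfbp6 rose from 24.4 to 58.8 CPM, Igfbp3 fell from 249 to 95 CPM and Igfbp7 from 394 to 214 CPM.

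Among Wnt genes the receptors fell, with 1 of 11 higher and 6 lower. Fzd4, the receptor that shapes retinal vessels, had 23.6, 24.3 and 21.8 CPM in WT and 10.9, 9.09 and 9.05 CPM in OE (-1.26, SE 0.099), with OE below WT throughout. The agonist Rspo1 fell from 97.4 to 49.1 CPM, and the target Tcf7 rose from 6.98 to 11.6 CPM. In the Notch pathway, which sets arterial fate and restrains sprouting, Notch1 had 16.5, 19.1 and 22.7 CPM in WT and 7.93, 6.22 and 8.65 CPM in OE (-1.36, SE 0.19). Its ligand Jag1 rose from 13.6 to 19.8 CPM. Of 3 targets tested 0 were called; Hey1 stood at 3.98 CPM in WT and 3.69 CPM in OE.

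Guidance genes, first known from growing axons and shared by sprouting vessels, were mostly lower. Of 27 semaphorins and their plexin receptors 1 was higher and 16 lower, at a median of -0.426. Plxnd1, the endothelial plexin, had 84.6, 87.7 and 94.9 CPM in WT and 38.1, 36.3 and 38.9 CPM in OE (-1.24, SE 0.057). Ntn1, a netrin, moved the other way, with 5.91, 6.34 and 7.5 CPM in WT and 21.8, 20 and 22 CPM in OE (1.69, SE 0.11). In both genes the groups were apart. Ntng2 rose from 0.173 to 6.17 CPM; another gene lies over it on the same strand, so its counts may be shared. Of 17 ephrins and Eph receptors 1 was higher and 7 lower.

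VEGF and angiopoietin receptors were mostly lower. Of 7 receptors and co-receptors 1 was higher and 6 lower, or 2 and 5 with window medians removed. Flt4, the receptor of lymphatic endothelium, had 112, 114 and 122 CPM in WT and 75.8, 75.4 and 75.1 CPM in OE (-0.62, SE 0.039). Tek, the angiopoietin receptor, fell from 1.84 to 0.459 CPM, and Ptprb, the phosphatase that restrains it, from 11.1 to 3.09 CPM. Flt1 was the receptor that rose, from 17.2 to 21.9 CPM. Of 11 endothelial transcription factors 2 were higher, 4 lower and 5 not called, at a median of -0.092. Tal1, a blood and endothelial factor, had 4.98, 4.44 and 3.94 CPM in WT and 0.192, 0.121 and 0.0222 CPM in OE (-5.27, SE 0.56). Foxc1 had 66.5, 66 and 64.2 CPM in WT and 16.3, 16.9 and 18 CPM in OE (-1.94, SE 0.043). OE lay below WT for both. The orphan receptor Nr2f2, a factor of venous fate, rose from 59.8 to 66.7 CPM.

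Chemokines and adhesion molecules were lower where they were called. Of 13 chemokine ligands tested 0 were higher and 5 lower. Of 7 adhesion molecules 0 were higher and 4 lower. Other cytokines were less uniform: of 18 interleukins and IL-6 family genes 3 were higher and 9 lower. Of 5 colony-stimulating factors 0 were higher and 1 lower, at a median of 0.011. Csf1, the growth factor of macrophages, had 806, 838 and 828 CPM in WT and 362, 374 and 361 CPM in OE (-1.17, SE 0.023, adjusted p = 1.94e-15). Il33, a nuclear cytokine of endothelium, had 39.7, 40.8 and 35.9 CPM in WT and 11.3, 12.5 and 11.3 CPM in OE (-1.73, SE 0.074). Vcam1, which arrests leukocytes, had 69.1, 79.6 and 69.3 CPM in WT and 25.6, 24.7 and 23.5 CPM in OE (-1.57, SE 0.076). Each fell in all 3 OE libraries. Of 26 NF-kB components and targets 9 were higher and 2 lower, or 1 and 3 with library totals alone. Of 13 complement genes 3 were higher and 6 lower. Interferon genes were mixed, with 8 of 50 higher and 14 lower at a median of -0.027. Gbp2 fell from 7.72 to 3.34 CPM and Isg15 rose from 1.26 to 2.56 CPM.

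Antigen presentation was mixed as well. Of 12 class I genes 4 were higher and 2 lower. H2-K1 had 199.5, 193 and 225 CPM in WT and 272, 283 and 272 CPM in OE (0.42, SE 0.071), with OE above WT in each library. The loading factor Tapbp fell from 132 to 93.6 CPM. Class I genes are near-identical copies of one another, so their values are uncertain. Cyba, the membrane subunit that NADPH oxidases share, had 21.2, 18 and 19.4 CPM in WT and 0.554, 0.485 and 0.667 CPM in OE (-5.10, SE 0.14). Duoxa2, the maturation factor of the oxidase DUOX2, had 0, 0 and 0.0447 CPM in WT and 3.5, 3.76 and 3.87 CPM in OE. Of 49 antioxidant genes 13 were higher and 13 lower, and with library totals alone 5 and 14.

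Lysosomal genes leaned downward. Of 55 enzymes, membrane proteins and pump subunits 7 were higher and 27 lower, at a median of -0.134. Hexa, which degrades gangliosides, had 74.7, 79.2 and 81.1 CPM in WT and 32.7, 33.2 and 37.3 CPM in OE (-1.19, SE 0.07), of which -0.78 was left with its window removed. Lamp1, a main membrane protein, had 435, 416 and 447 CPM in WT and 299, 316 and 316 CPM in OE (-0.48, SE 0.04). All OE libraries lay below WT in both. Autophagy genes had 6 of 25 higher and 4 lower, at a median of 0.007, and 3 and 6 with library totals alone. Of 223 solute carriers 47 were higher and 57 lower, or 35 and 60 with library totals alone. Adenylyl cyclases, which make cyclic AMP, moved both ways: Adcy1 fell from 129.6 to 47.5 CPM and Adcy5 from 16.9 to 5.25 CPM, and Adcy3 and Adcy7 rose from 9.98 to 25.2 CPM and 6.2 to 16.4 CPM.

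Among 43 BTB zinc finger genes, Zbtb46 itself included, 10 were higher and 9 lower, or 6 and 9 with library totals alone. Besides Zbtb46, Zbtb8b rose from 0.902 to 3.88 CPM and Zbtb10 from 12 to 17.4 CPM, and Zbtb7c fell from 64.1 to 34.6 CPM. Of 21 corepressor genes 7 were higher and 3 lower. Kdm1a, a histone demethylase, and Hdac1, a deacetylase, rose from 101 to 141 CPM and 109 to 144 CPM. Both lie in raised windows of chromosome 4, where 0.48 became 0.13 and 0.41 became 0.059. Of 28 other chromatin genes 11 were higher and 2 lower. Kdm5b, an H3K4 demethylase, had 31.4, 30.4 and 29.7 CPM in WT and 54.2, 55.7 and 53.4 CPM in OE (0.84, SE 0.03), above WT in all OE libraries. Of 336 genes whose symbol is Zfp, a number and at most 1 letter, 30 (8.93%) were higher and 69 (20.5%) lower. Over all genes tested these shares were 17.0% and 19.5%. With window medians removed 30 of the 336 were higher and 46 lower.

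Imprinted genes, expressed from one parental copy, divided evenly, with 6 of 16 higher and 6 lower. Plagl1, a growth-restraining zinc finger factor, had 0.738, 0.689 and 0.47 CPM in WT and 6.29, 7.41 and 7.09 CPM in OE (3.45, SE 0.2). Peg3 had 566, 738 and 650.3 CPM in WT and 328, 328 and 346 CPM in OE (-0.97, SE 0.11) and Peg10 fell from 128 to 43.4 CPM. The groups were apart for Plagl1 and Peg3. Meis1, a partner of HOX proteins, fell from 8.64 to 2.83 CPM, and Rora, a nuclear receptor of the circadian clock, rose from 4.14 to 11.9 CPM.

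The 10 largest rises and 10 largest falls were taken among called genes whose groups did not overlap, where either group averaged 5 CPM or more. Zbtb46, Fgfbp3, Ntng2, Plagl1, Smoc1 and Cyba, described above, were among them. Actc1, cardiac actin, had 0 counts in every WT library and 4.75, 5.05 and 6.36 CPM in OE, at least 82.2-fold higher with WT set at 3 counts per library. It is among the 8 cardiomyocyte markers, of which 2 were higher and 1 lower; Myh6 was at 0 in both groups. Med12l, a Mediator subunit, had 0, 0.0336 and 0 CPM in WT and 14, 12.6 and 14.6 CPM in OE. In the KD libraries their means were 7.21 and 15.4 CPM, so both were present in OE and KD cells and at or near 0 in WT. Ptx3, a secreted pattern-recognition protein, had 2.9, 4.15 and 2.64 CPM in WT and 30.4, 32.4 and 32.9 CPM in OE and a KD mean of 1.95 CPM. Eps8l2, Armcx4 and Dusp9 rose from 0.423 to 5.24 CPM, 0.529 to 5.99 CPM and 1.76 to 9.08 CPM. Their KD means were below WT, at 0.322, 0.0606 and 0.149 CPM. KD means were also below WT for Zbtb46 (11.2 CPM), Fgfbp3 (1.23 CPM) and Ntng2 (0.0675 CPM). For Plagl1 the KD mean was above WT, at 1.34 CPM. The difference of KD from WT was not tested.

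Of the falls, Vat1l had 47, 48.3 and 44.8 CPM in WT and 1.39, 2.08 and 1.96 CPM in OE and a KD mean of 113 CPM. Pcdh7, a protocadherin, fell from 27.1 to 2.29 CPM with a KD mean of 36.7 CPM, and Bahcc1 from 28.7 to 1.84 CPM. Cyp26b1, which degrades retinoic acid, fell from 7.09 to 0.605 CPM. Asmt, the last enzyme of melatonin synthesis, fell from 5.23 to 0.158 CPM, and Naip2, a sensor of bacterial proteins, from 6.89 to 0.341 CPM. Peak1os fell from 11.5 to 0.46 CPM; it lies opposite a gene with more counts, so its value is uncertain. CAAA01147332.1 fell from 44.2 to 0.908 CPM and has no position in the annotation used. KD means lay on both sides of WT among these falls. They were below WT for Smoc1 (10.7 CPM), Bahcc1 (17.9 CPM), Cyp26b1 (4.32 CPM), Asmt (4.56 CPM) and Naip2 (4.18 CPM). Besides Vat1l and Pcdh7, they were above WT for Cyba (24.6 CPM), Peak1os (20.5 CPM) and CAAA01147332.1 (44.9 CPM).

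**Figure D4:**
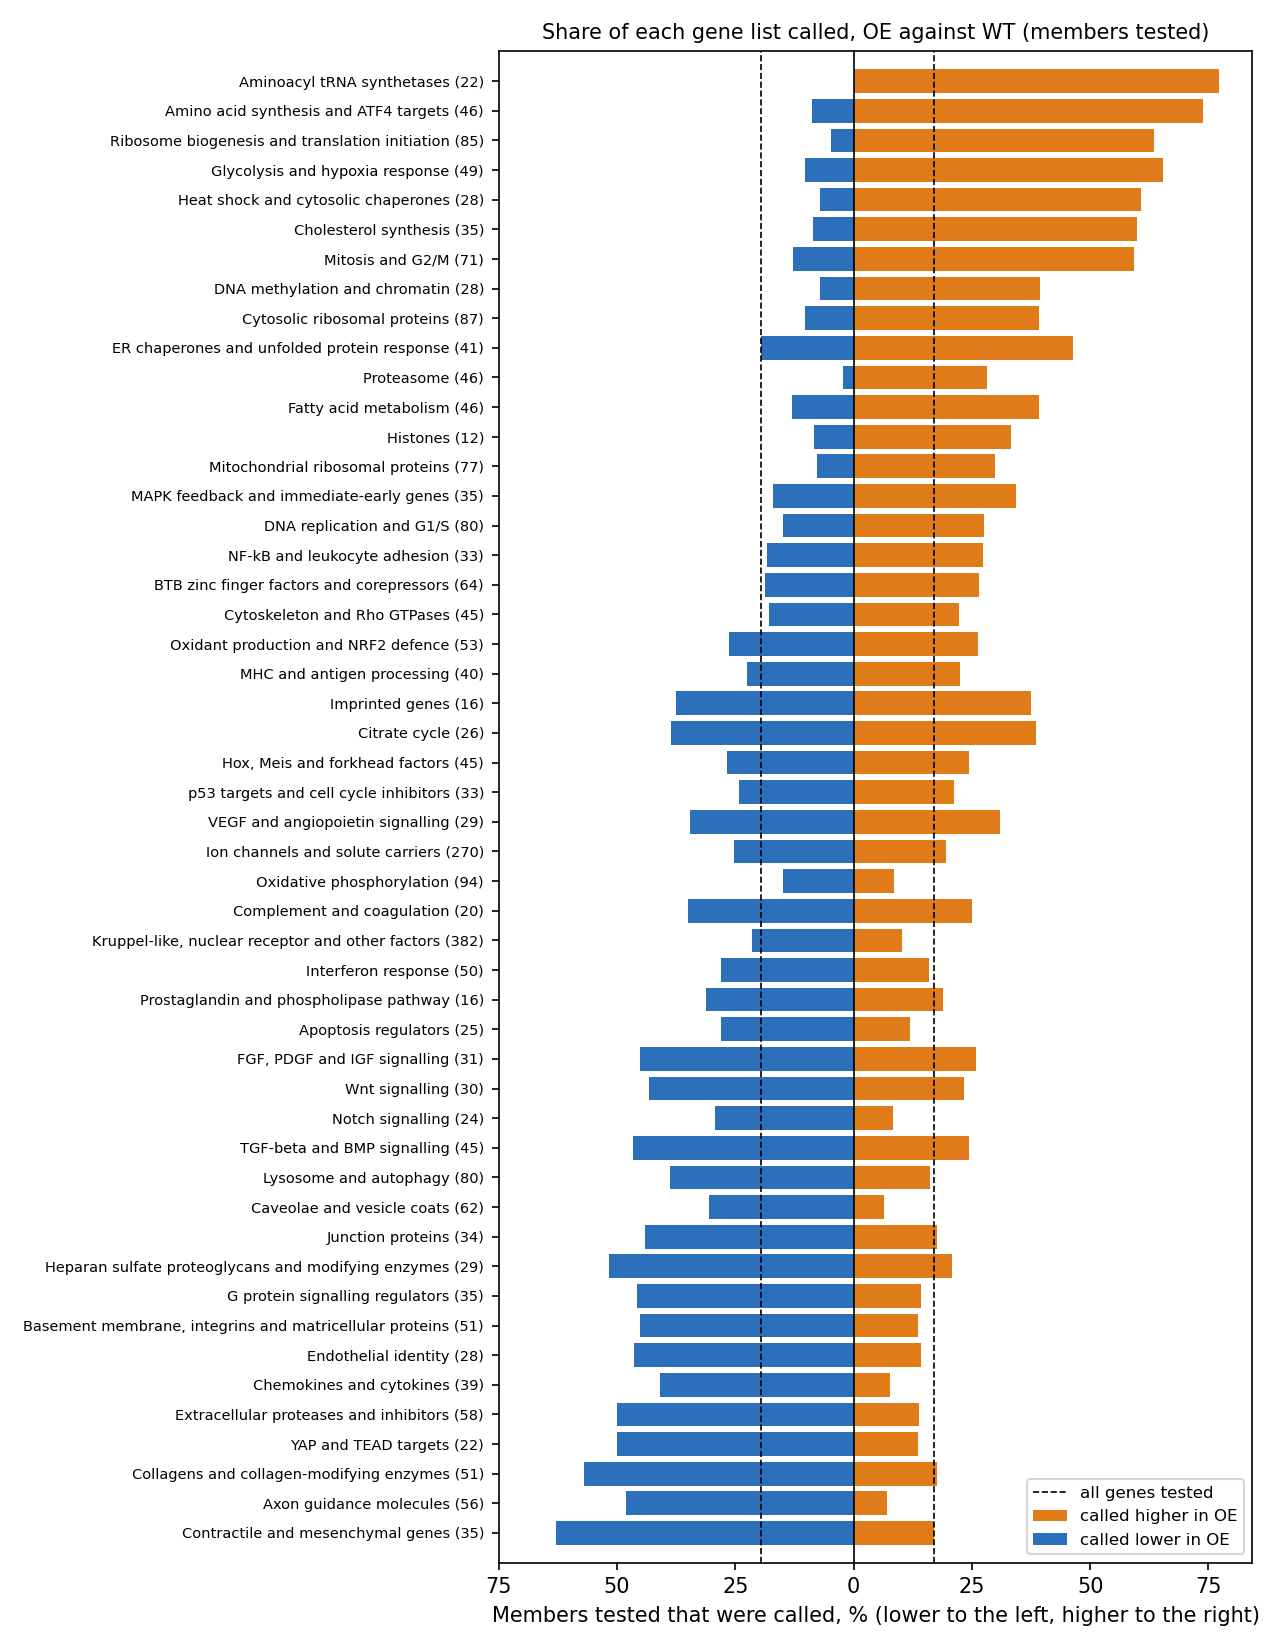
Share of the tested members of each of 50 gene lists that were called higher (orange, to the right) or lower (blue, to the left) in OE, in percent of members. Dashed lines mark the shares over all genes tested, 17.0% higher and 19.5% lower. tRNA synthetases (77.3% higher) and the amino acid list (73.9%) extend farthest to the right, and contractile and mesenchymal genes (62.9% lower) and collagens (56.9%) farthest to the left.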

How the data were processed

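Poly-A RNA libraries of mouse MCEC were sequenced by the authors as 150-base read pairs on a NovaSeq, per the labels' protocols. The deposited table holds raw whole-number counts per Ensembl gene. Reads were mapped to GRCm38 (mm10), per the submitters' processing notes. The aligner, counter, annotation release and strand setting are not given in the sources used here. Poly-A selection biases against transcripts without a tail.

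Of 55774 rows, 455 repeat 168 genes with identical values and were counted once. Genes passing filterByExpr were fitted over all 9 libraries with edgeR 4.0.16 (TMM scaling, robust quasi-likelihood, R 4.3.3), with Benjamini-Hochberg adjustment over all genes tested. SEs come from log2 CPM with a prior count of 2, over 3 libraries a group. CPM values are normalised read counts computed here. The range of total counts per library is in the report. Ribosomal RNA features took 17.3%, 7.44% and 10.0% of the counts in WT replicates 1 to 3. In OE replicates 1 to 3 they took 14.4%, 15.8% and 18.2%. On counts simulated for this comparison, with 16687 genes passing the filter, the test recovered 43 of 49 genes changed 2-fold and 36 of 50 changed 1.5-fold. The simulation changed 200 genes, drawn from those above a minimum count, and gave every gene the same spread. Recovery of genes with few counts or a wider spread was not measured. Gene lists got no set test.

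Named genes were up to 3 of the smallest p in each direction of each list, the 10 largest rises and falls, and further members of the lists; these last were chosen after their values were seen. Members and lists were chosen with earlier results of these data known. Alternatives were DESeq2 1.42.0, limma-voom 3.58.1, other scalings and filters, a minimum fold change, removal of the median of each 20 Mb window, a replicate block and leaving out each library. Promoters came from RefSeq tables of GRCm38.p6 and positions from GENCODE.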

Additional observations from a re-analysis of the deposited data

How the results depend on the processing

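The number of genes called stayed between 5129 and 6440 under every alternative but one, against 6174 as reported; requiring a fold change above 1.5 left 794 genes, 263 higher and 531 lower. DESeq2 called 5972, limma-voom 6201, DESeq2 size factors 6209, library totals alone 5129, library totals without ribosomal RNA features 6246 (an alternative chosen after seeing the data), at least 10 counts in every library 5903, no filter 6039 and the fit of OE and WT alone 5518. Leaving out 1 library gave 5228 (without OE replicate 1) to 6440 (without WT replicate 2). With replicate number as a block 6111 genes were called. Libraries of the same number did not deviate together (correlations of -0.00268 to 0.049, and 1 of 3 WT libraries correlated best with its own number), so the numbers were not taken to pair the samples. Zbtb46 kept a log2 fold change of 3.74 to 3.86 in all of these.

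Library totals alone moved the median of all genes to -0.06 on the log2 scale and moved the counts of 9 of 50 lists by over 1.5 times: NF-kB, citrate cycle, heat shock, tRNA synthetases, ribosomal proteins, ribosome biogenesis, proteasome, G1/S and mitosis. Removal of window medians did so for 3 lists, and the minimum fold change for 49. Library totals without ribosomal RNA features did so for 0 lists. Apoptosis regulators went from 3 higher and 7 lower to 1 and 4 without OE replicate 1 and to 1 and 4 without OE replicate 2, and prostaglandin genes from 3 and 5 to 2 and 3 at 10 counts in every library. Of the genes named, removal of window medians turned Ccnb1 to 0.0522, Ccnb2 to 0.0631, Pkm to 0.261, Slc7a5 to 0.134 and Xbp1 to 0.252. Fn1, which was not called, changed sign near 0, to -0.00279 with library totals alone and -0.0342 without WT replicate 1, with 0.138 at most over the libraries left out (without WT replicate 3). What moved these values was not tested. Depth limits genes under 1 CPM, of which 4.03% were called higher and 6.65% lower.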

Other observations

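Grouping genes by the letters of their symbols, with at least 10 members tested, gave 167 families. Those described here were chosen after their counts were seen. Of 11 Srsf splicing factors 6 were higher and 0 lower, of 17 Dhx helicases 8 and 0, of 35 Ddx helicases 17 and 3, of 13 Prpf splicing genes 6 and 0, and of 20 Nup nucleoporins 12 and 1. Utp genes of the small subunit processome had 7 of 11 higher and 0 lower. Among chromatin families, 6 of 10 Chd remodellers were higher and 1 lower, and 8 of 17 Kdm demethylases were higher and 1 lower.

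Of 10 annexins (Anxa), which bind membranes with calcium, 0 were higher and 9 lower, and of 17 Myo myosins 0 were higher and 10 lower, whereas of 32 Kif kinesins 12 were higher and 6 lower. Of 10 genes whose symbols begin with Man, mostly mannosidases, 0 were higher and 6 lower. Aldehyde dehydrogenases (Aldh) had 2 of 17 higher and 9 lower. Removal of window medians moved some family medians on the log2 scale. That of Srsf went from 0.148 to 0.054, Myo from -0.297 to -0.199 and Man from -0.42 to -0.318. The Dhx median went the other way, from 0.075 to 0.175. Over all genes tested 17.0% were higher and 19.5% lower. Families differ in level, and levels differ in how often genes are called.

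By gene class, 21.2% of 12594 protein-coding genes were called higher and 24% lower. Of 384 lincRNAs 8.85% were higher and 16.1% lower, and of 453 antisense genes 2.43% and 7.51%. Of 2412 processed pseudogenes, which can take reads from their parent genes, 4.15% were higher and 4.52% lower. Genes under 1 CPM were called in 4.03% and 6.65% of 3999 cases.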
